A study of Gallus gallus with 10 samples.

Results

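Axon guidance molecules are ligands and receptors that attract or repel cells and growing axons, and before any axon forms they also steer cell migration and keep neighboring tissues apart. Ephrins are membrane-bound ligands of the Eph receptor tyrosine kinases, secreted and membrane-bound semaphorins act through plexins and neuropilins, and slits act through ROBO receptors. Among the receptors of netrins are the UNC5 receptors, which mediate repulsion. In the young embryo, Eph receptors and ephrins sharpen the borders between hindbrain segments and between somites, and class 3 semaphorins and slits shape the paths of neural crest cells. The members of these families were taken by gene symbol alone, but the families were chosen with earlier results of these data known. Members are all genes of the chicken gene table named as an EPHA or EPHB receptor, an ephrin (EFNA, EFNB), a semaphorin (SEMA), a plexin (PLXN), a neuropilin (NRP), a ROBO, a slit, a netrin (NTN) or an UNC5 receptor. This gave 57 of the 25443 genes in the table.

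Transcripts were measured by poly-A RNA-seq in wild-type chicken embryos that had been cultured ex ovo and dissected at st. 10–11. Electroporation was done at st. 4/5, but the control sample CT1 is titled as not electroporated. Exogenous Otx2 was supplied across the epiblast by the vector pCAGGS-mOtx2, in which a broadly active promoter drives the mouse Otx2 cDNA, together with pCAGGS-EGFP, and most control samples came from embryos with pCAGGS-EGFP. The midbrain-hindbrain region was sampled without (CH1, CH2) and with exogenous Otx2 (OH1, OH2). The sinus rhomboidalis was sampled from control embryos (CT1, CT2). The study describes it as a tissue complex at the trunk end where progenitors of both neural and mesodermal tissue multiply. The corresponding region was sampled from Otx2-electroporated embryos (OT1, OT2), which according to the study lack this structure. The posterior area opaca, an extraembryonic tissue, was sampled once from control (CA) and once from Otx2-electroporated embryos (OA). Each sample was a pool of 4 embryos, so that the spread between duplicates is a spread between 2 pools, and the proportion of electroporated cells in a pool is not known from the counts.

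The libraries held between 28606038 counts (CT1) and 40806402 counts (OA), of which the 57 guidance genes took between 0.281% (CA) and 0.458% (OH2). Mouse Otx2 was listed at 0 TPM (a transcript level corrected for length and depth) in CH, CT and CA. It was at 97.4 and 160.3 TPM in OH, 334.2 and 529.2 TPM in OT, and 139.5 TPM in OA. The trunk and brain samples thus also differed in the level of exogenous Otx2. The labels of the trunk controls conflict. CT1, with the library name NewCT1, is titled as not electroporated but has an EGFP treatment entry, and its EGFP level was 1.12 TPM. CT2 has an entry of no electroporation, and its EGFP level was 15328 TPM. Both EGFP levels go with the sample titles rather than with the treatment entries. The trunk control duplicates thus differed in EGFP, and the calls that rest on CT are given with and without CT1. The summed level of 8 neural plate markers was 423 and 417 TPM in CH and 201 and 176 TPM in CT. Of 10 paraxial mesoderm and tail bud markers, 9 were in the table, and their sum was 40.5 and 58.8 TPM in CH and 440 and 395 TPM in CT. A list of 7 heart markers summed to 291 TPM in CH1 and 2443 TPM in CH2, so the midbrain-hindbrain pools also held heart transcripts to differing degrees.

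All 57 guidance genes passed the low-count filter, and 54 reached 1 TPM in at least 1 sample. EPHA6, EPHA8 and NTN4 stayed under 1 TPM in every sample. The mean over the 10 samples was at least 5 TPM for 43 genes and at least 50 TPM for 6 genes. The most abundant member was the receptor NRP2, a neuropilin that binds class 3 semaphorins, with a mean of 158 TPM, followed by the ephrin EFNB1 with 137 TPM. A difference was called at an adjusted p under 0.05 in the edgeR fit (quasi-likelihood F test, Benjamini-Hochberg method, 16611 genes tested).

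Between the control trunk and the control midbrain-hindbrain, 11 guidance genes were called higher in CH (19.3% of the members, against 4.88% of all genes tested) and 3 were called lower (5.26%, against 2.91% of all genes). Fewer members, and also fewer of all genes, were called in this comparison when any CH or CT pool was left out. DESeq2 called 24 members and 15.1% of all genes. The calls left without CT1 were EPHA1, ROBO3, SEMA3F, SEMA6A, SLIT1, UNC5A and UNC5B. The size of the log2 difference had a median of 0.65 over the members and 0.29 over all genes. Between the trunk samples with and without exogenous Otx2, 7 members were called higher in OT (12.3%, against 4.29% of all genes) and 6 lower (10.5%, against 2.44%), and the size of the log2 change had a median of 0.56, against 0.37 over all genes. Between OH and CH, 0 of 57 members were called, as were 0.0361% of all genes. At an unadjusted p under 0.05 the count was 5 members (8.77%, against 2.76% of all genes). The Wald test of DESeq2 called 1 of the 57 members and 0.413% of all genes. The comparisons OT with CT and CH with CT share the CT samples, so their values are given side by side and are not independent.

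**Figure D1:**
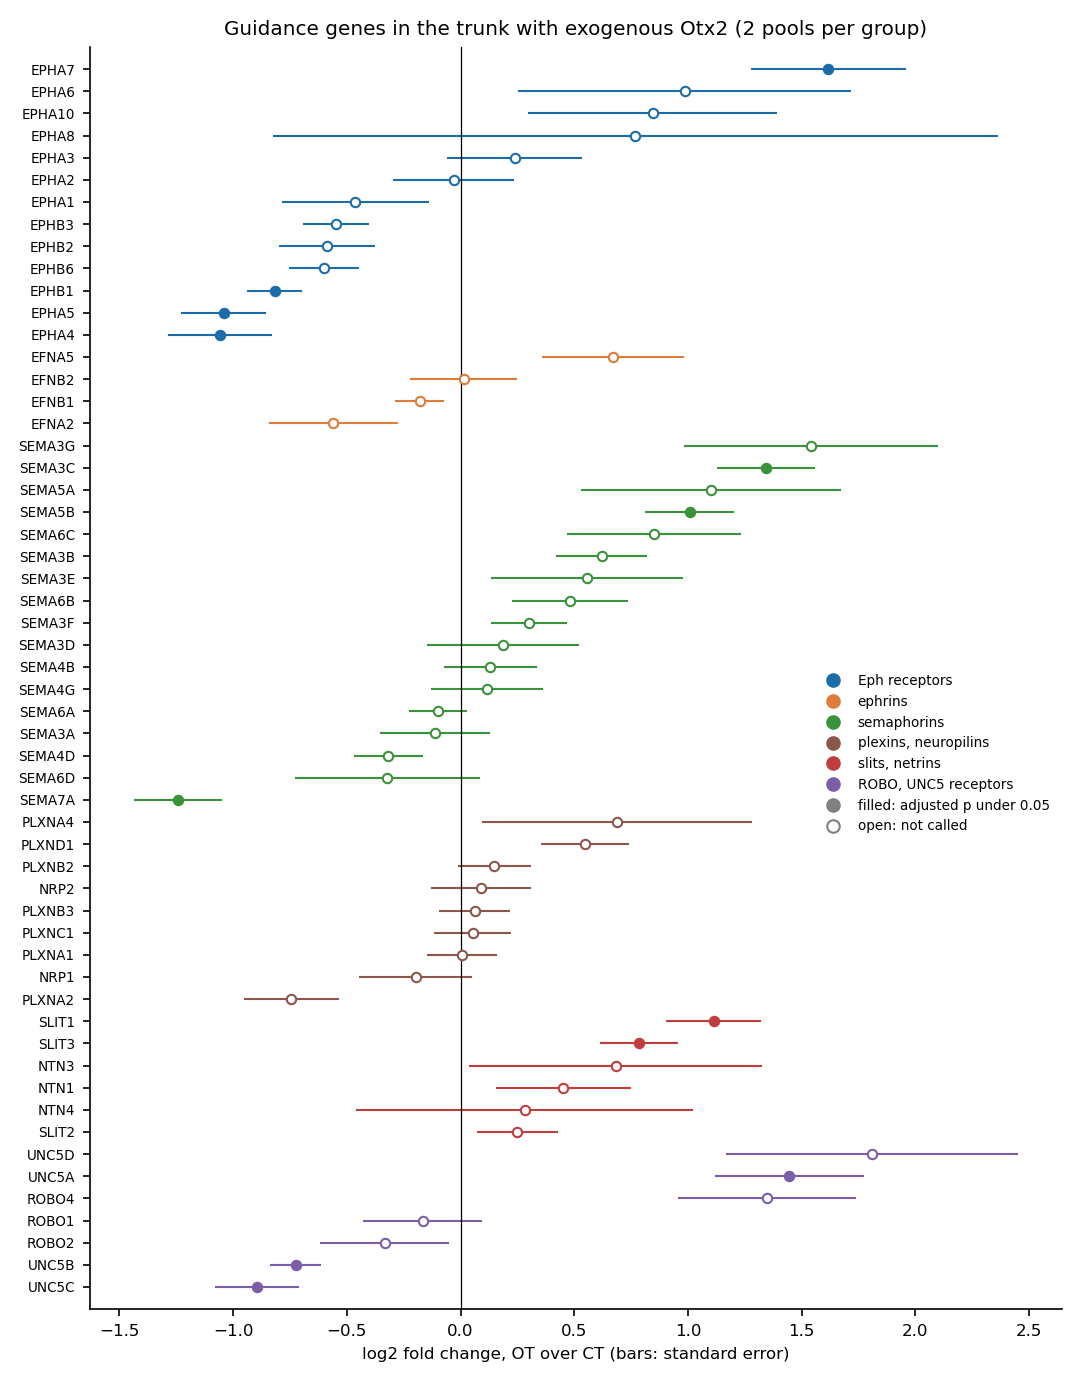
Log2 fold change of OT over CT (x axis) for 56 guidance genes (y axis), colored by role, with the standard error as bars; filled points have an adjusted p under 0.05 in edgeR. Eph receptors, semaphorins and UNC5 receptors lie on both sides of 0, the EPHB receptors all lie below 0 and the slits all above it; ROBO3, with 0 counts in both CT samples, is not drawn.

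The calls in the trunk depended on the control pools. Without CT1, the library with an EGFP level of 1.12 TPM, no member was called in OT against CT by edgeR. Far fewer of all genes were also called than in the main fit. Most of the 13 calls were also lost without CT2 and without OH1 or OH2. The OH pools enter this comparison through the gene filter, the normalization and the shared spread. Leaving out OT1 or OT2 kept most of the 13 calls and added others. In each of these fits fewer of all genes were called than in the main fit. A fit on the 4 trunk samples alone called 0 members and 0.849% of all genes. DESeq2 called 20 members and 17.0% of all genes, and limma on log2(TPM + 1) called 5 members, of which 1 was higher and 4 were lower, and 5.57% of all genes. All 13 changes kept their direction under each of these settings. CT and OT did not overlap for any of the 13, so leaving out 1 of these pools could hardly reverse a direction. The other settings used the same CT and OT pools, so the kept direction adds little to the main fit. Of 16 alternatives, the call in OT against CT was lost in 14 for UNC5A, in 10 for EPHA4 and EPHA7, and in 9 for EPHA5 and SEMA5B. It was lost in 8 for SLIT3 and UNC5C and in 7 for SEMA3C and SLIT1. The fewest losses were 4 for SEMA7A and UNC5B, 3 for EPHB1 and 2 for ROBO3.

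Eph receptors were the largest receptor group, with 9 EPHA and 4 EPHB genes. EPHA4, a receptor of both ephrin classes that marks alternating hindbrain segments and forming somites, was the most abundant EPHA gene. Its level was 39.3 and 46.5 TPM in CH, 44.6 and 61.4 TPM in OH, 42.4 and 35.8 TPM in CT, and 19.6 and 15.4 TPM in OT. The OT samples lay below all 6 other embryonic samples. EPHA4 fell by 1.06 in OT on the log2 scale (SE 0.229; adjusted p = 0.0409 by edgeR), with −0.93 and adjusted p = 0.229 without CT1. In CH against CT its log2 difference was 0.19 (adjusted p = 0.719).

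EPHA5, a receptor of A-class ephrins, lay at 8.39 and 7.58 TPM in CT and at 3.71 and 3.92 TPM in OT, without overlap. It fell by 1.04 on the log2 scale (SE 0.187; adjusted p = 0.0282 by edgeR; −0.97 and adjusted p = 0.165 without CT1), a call lost in 9 of 16 alternatives, and its difference between CH and CT was −0.13 (adjusted p = 0.784). EPHA4 and EPHA5 were thus lower in the trunk with exogenous Otx2, while neither was called between control brain and control trunk.

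EPHA7, another receptor of A-class ephrins, expressed regionally in the embryonic brain, went the other way. Its level was 2.82 and 3.03 TPM in CT, 5.73 and 11.95 TPM in OT, 9.55 and 11.0 TPM in CH, and 16.2 and 25.8 TPM in OH. Every OT sample lay above every CT sample, although the OT duplicates were 2.09-fold apart. EPHA7 rose by 1.62 on the log2 scale in OT (SE 0.339; adjusted p = 0.0384 by edgeR), and this value was 2.03 without OT1, 1.08 without OT2 and 1.58 without CT1 (adjusted p = 0.223), with the call lost in 10 of 16 alternatives. It was also higher in CH than in CT by 1.81 (adjusted p = 0.0223, and 0.125 without CT1). In OH its log2 difference from CH was 1.01 (unadjusted p = 0.0172, adjusted p = 1), the only member at or above 1 with at least 5 TPM and no overlap in that comparison.

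EPHA1, a receptor known mainly from epithelia, had the most uneven distribution of the Eph receptors between the control tissues. Its level was 34.4 and 38.0 TPM in CT and 5.91 and 7.58 TPM in CH, and it was lower in CH by 2.42 on the log2 scale (SE 0.342; adjusted p = 0.00893 by edgeR), with adjusted p = 0.0612 without CH1. In OT, EPHA1 was at 33.9 TPM in OT1, near the CT level, and at 16.7 TPM in OT2, and the change was not called (−0.46, adjusted p = 0.393). In CA and OA it was at 26.3 and 26.8 TPM.

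The EPHB receptors, which bind mainly B-class ephrins, all had lower means in OT than in CT. EPHB1 was at 33.5 and 35.3 TPM in CT, at 18.2 and 19.8 TPM in OT, and between 23.1 and 26.8 TPM in the 4 midbrain-hindbrain samples, and the OT pair lay below all of these. EPHB1 fell by 0.82 in OT (SE 0.121; adjusted p = 0.0171 by edgeR), and lost the call without CT1 (−0.85, adjusted p = 0.103) or without CT2. The other EPHB genes were not called, and their log2 differences were −0.59 for EPHB2 (adjusted p = 0.134), −0.55 for EPHB3 (adjusted p = 0.0662) and −0.60 for EPHB6 (adjusted p = 0.0622).

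EPHB3, the most abundant Eph receptor, was at 77.4 and 68.3 TPM in CT and 42.2 and 56.5 TPM in OT, but at 66.8 and 62.4 TPM in CH and 89.0 and 100.4 TPM in OH. The ranges did not overlap in either tissue, with OT below CT and OH above CH. In OH its log2 difference from CH was 0.55 (unadjusted p = 0.00582, adjusted p = 1). The difference between the trunk and brain responses (interaction) was −1.10 (SE 0.203; adjusted p = 0.118 by edgeR), and it was negative for all 4 EPHB genes, between −1.10 and −0.69, with none called. The summed level of the 4 EPHB genes was 184 and 169 TPM in CT and 96.0 and 129 TPM in OT.

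The 4 ephrin genes in the table gave 0 calls in OT against CT and 1 in CH against CT, counts too small to set against the 6.73% and 7.78% of all genes called in either direction. EFNB1, a transmembrane ligand of EPHB receptors, lay between 120 and 151 TPM in the 8 embryonic samples. The log2 difference of EFNB1 was −0.18 in OT against CT (SE 0.108; adjusted p = 0.327 by edgeR) and −0.01 in CH against CT (adjusted p = 0.992). EFNA2, an A-class ephrin tethered by a lipid anchor, was at 99.4 and 77.1 TPM in CH, 91.9 and 109.3 TPM in OH, 54.3 and 38.996 TPM in CT, and 24.5 and 37.3 TPM in OT. All midbrain-hindbrain samples lay above all trunk samples, but the difference between CH and CT was not called (0.94, adjusted p = 0.0964), nor was that between OT and CT (−0.56, adjusted p = 0.251). EFNA5, an A-class ephrin that sets up topographic maps later in the midbrain, was higher in CH (12.4 and 11.5 TPM) than in CT (4.89 and 4.72 TPM), by 1.33 on the log2 scale (adjusted p = 0.0474 by edgeR). This call was lost in 9 of the 16 alternatives, among them without either CH or either CT sample. In OT, EFNA5 was at 4.87 and 10.1 TPM.

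**Figure D2:**
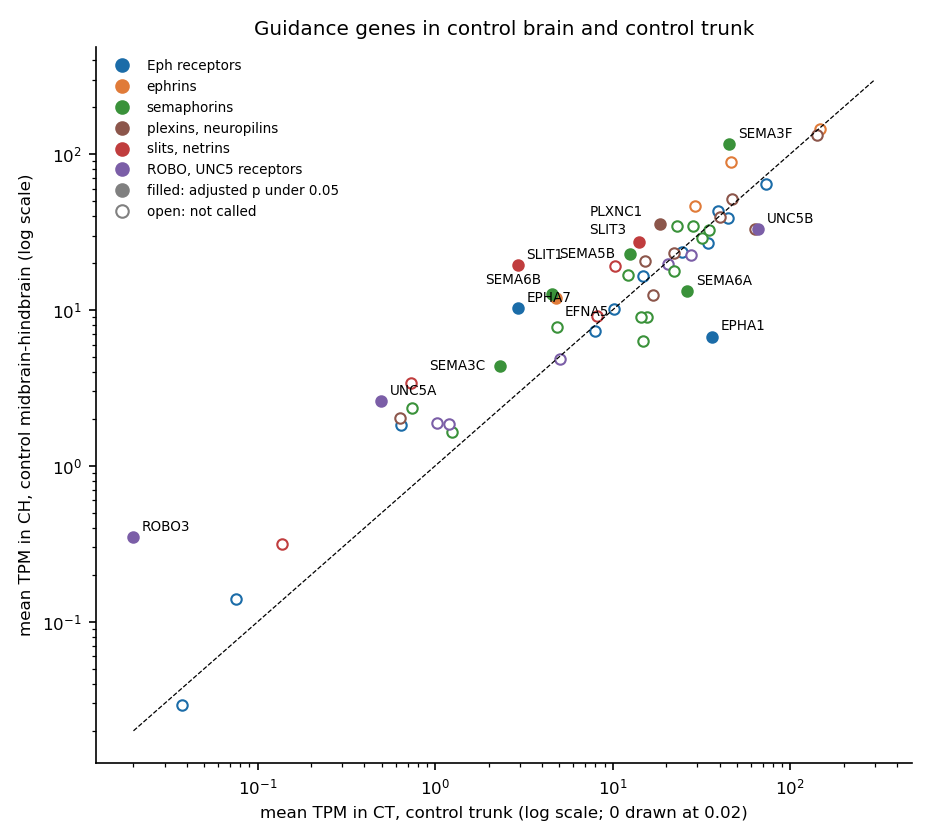
Mean TPM of the 57 guidance genes in CT (x axis) and CH (y axis), both on log scales and each the mean of 2 pools; filled points have an adjusted p under 0.05. SLIT1, SEMA3F, EPHA7 and UNC5A lie above the dashed line of equal levels and EPHA1, UNC5B and SEMA6A below it; ROBO3, at 0 in CT, is drawn at 0.02.

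Among the 7 class 3 semaphorins, which are secreted, SEMA3F, a ligand of NRP2, was the most abundant. SEMA3F was at 121 and 111 TPM in CH and 124 and 129 TPM in OH, but at 51.1 and 39.7 TPM in CT and 48.0 and 61.1 TPM in OT. The midbrain-hindbrain and trunk samples were far apart, and the Otx2-electroporated samples lay near their own controls. SEMA3F was higher in CH than in CT by 1.37 on the log2 scale (SE 0.170; adjusted p = 0.00588 by edgeR), a call kept in all 16 alternatives, and its log2 change in OT was 0.30 (adjusted p = 0.287).

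SEMA3C, a class 3 semaphorin with roles in neural crest and outflow tract development, was at 2.30 and 2.33 TPM in CT and 5.31 and 6.17 TPM in OT. OH was at 5.93 and 6.10 TPM and CH at 3.49 and 5.25 TPM, so that the CT samples were the lowest of the 8. SEMA3C rose in OT by 1.34 on the log2 scale (SE 0.216; adjusted p = 0.02001 by edgeR; 1.34 and adjusted p = 0.138 without CT1), and was higher in CH than in CT by 0.91 (adjusted p = 0.0466, and 0.173 without CT1). SEMA3G, a semaphorin of blood vessels, was at 7.2 and 17.05 TPM in CT, but reached 50.03 TPM in OT1, with 17.8 TPM in OT2. Its change was 1.54 and was not called (adjusted p = 0.136); the value was 0.55 without OT1 and 2.28 without CT2 at its extremes. SEMA3G was also abundant in the area opaca, at 41.3 TPM in CA and 67.4 TPM in OA. The sum of 8 endoderm and yolk sac markers was higher in OT1 (12386 TPM) than in OT2 (8601 TPM). That of 6 blood markers was also higher in OT1 (10609 TPM) than in OT2 (1395 TPM). The sum of 10 endothelial markers went the other way, with 260 TPM in OT1 and 325 TPM in OT2. The part of these tissues in the level of SEMA3G was not tested.

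The 10 semaphorins of classes 4 to 7 are membrane-bound. SEMA7A, a lipid-anchored semaphorin that binds PLXNC1 and integrins, had the largest decrease among the members called in OT. Its level was 16.0 and 12.9 TPM in CT, 5.95 and 5.53 TPM in OT, 8.17 and 9.84 TPM in CH, and 7.35 and 7.62 TPM in OH. SEMA7A fell by 1.24 in OT (SE 0.194; adjusted p = 0.0197 by edgeR), and the value was −1.11 with adjusted p = 0.130 without CT1. The gene overlaps UBL7, an expressed gene with a mean of 31.4 TPM, and because the strand setting of the counting is not given, the share of reads from the overlap is uncertain.

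SEMA5B, a transmembrane semaphorin with thrombospondin repeats, moved in the opposite direction. It was at 11.5 and 13.6 TPM in CT, 19.1 and 30.3 TPM in OT, 21.5 and 24.2 TPM in CH, and 26.9 and 29.9 TPM in OH. The CT samples were the lowest of the 8, and SEMA5B rose in OT by 1.01 on the log2 scale (SE 0.195; adjusted p = 0.0324 by edgeR; 0.90 and adjusted p = 0.210 without CT1). It was also higher in CH than in CT by 0.88 (adjusted p = 0.0390, and 0.194 without CT1).

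The 4 class 6 semaphorins, transmembrane ligands of A-type plexins, gave 0 calls in OT against CT and 2 in CH against CT, again on too few genes to set against the background. SEMA6B was at 12.8 and 12.4 TPM in CH and 4.64 and 4.49 TPM in CT, higher in CH by 1.48 on the log2 scale (SE 0.258; adjusted p = 0.0175 by edgeR), with adjusted p = 0.0954 without CT1. SEMA6A was at 11.5 and 14.9 TPM in CH and 25.6 and 27.1 TPM in CT, lower in CH (−0.996 on the log2 scale, SE 0.129; adjusted p = 0.00666), and this call was kept in all 16 alternatives. In OT, SEMA6A stayed near the CT level, at 23.8 and 24.6 TPM (−0.10, adjusted p = 0.658). SEMA6D was not called between CH and CT (−1.23, adjusted p = 0.131), with 8.95 TPM in CT1 but 20.8 TPM in CT2. SEMA6A overlaps COMMD10 and SEMA6D overlaps MYEF2, both expressed, so their counts carry the same uncertainty. SEMA4B, the most abundant of these classes with a mean of 32.4 TPM and an overlap with the expressed gene IDH2, differed by 0.13 in OT (adjusted p = 0.718) and by 0.29 in CH (adjusted p = 0.506).

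Among 7 plexins, which relay the signal inside the cell, and 2 neuropilins, 0 were called in OT against CT and 1 in CH against CT, which is near the share of all genes called. PLXNA1, the most abundant plexin, lay between 41.6 and 67.6 TPM in the 8 embryonic samples, and its log2 difference was 0.01 in OT (SE 0.154; adjusted p = 0.984 by edgeR). NRP2 was at 109 and 174 TPM in CT, 155 and 137 TPM in OT, 137 and 128 TPM in CH, and 159 and 183 TPM in OH, with overlap between CT and OT and a log2 difference of 0.09 (adjusted p = 0.828). The plexin called was PLXNC1, the receptor of SEMA7A, at 31.6 and 39.3 TPM in CH and 20.6 and 16.3 TPM in CT. PLXNC1 was higher in CH by 0.95 on the log2 scale (SE 0.169; adjusted p = 0.0191), a call that was lost when any of the CH or CT samples was left out. In OT, PLXNC1 was at 16.0 and 21.4 TPM (0.05, adjusted p = 0.868).

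Slits are secreted ligands that repel axons and crest cells, and all 3 slit genes had higher means in OT than in CT and in CH than in CT. SLIT1 was at 2.86 and 3.02 TPM in CT, 4.86 and 7.59 TPM in OT, 20.1 and 18.4 TPM in CH, and 18.3 and 19.8 TPM in OH. The OT samples lay above CT and well below all midbrain-hindbrain samples. SLIT1 was higher in CH than in CT by 2.73 on the log2 scale (6.62-fold; SE 0.216; adjusted p = 0.00166 by edgeR), the smallest adjusted p among the members in any comparison, and the call was kept in all 16 alternatives. In OT it rose by 1.11 (SE 0.208; adjusted p = 0.0311; 1.08 and adjusted p = 0.188 without CT1). Between OH and CH the log2 difference was −0.05.

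SLIT3, the most abundant slit, was at 13.9 and 14.4 TPM in CT, 19.9 and 27.4 TPM in OT, 22.7 and 31.9 TPM in CH, and 34.3 and 35.9 TPM in OH. The CT samples were the lowest. SLIT3 rose in OT by 0.78 on the log2 scale (SE 0.172; adjusted p = 0.0418 by edgeR; 0.78 and adjusted p = 0.232 without CT1), and was higher in CH than in CT by 0.93 (adjusted p = 0.0209, and 0.114 without CT1). SLIT2 was not called, with 0.25 in OT (adjusted p = 0.401).

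ROBO1, the most abundant slit receptor, was at 19.9 and 21.1 TPM in CT and 12.7 and 22.8 TPM in OT, and its difference was −0.17 (adjusted p = 0.717). ROBO3, a divergent ROBO of commissural neurons, had 0 counts in CT1 and CT2 and 30 and 55 counts in OT1 and OT2, at 0.443 and 0.771 TPM. In CH it had 18 and 30 counts, at 0.255 and 0.442 TPM. With a floor of 3 counts in each CT library, ROBO3 was at least 14.9-fold higher in OT and at least 8.27-fold higher in CH (adjusted p = 0.0154 and 0.0118 by edgeR), and its call in OT was lost without CT1 (adjusted p = 0.0825). ROBO3 stayed below 1 TPM in every embryonic sample, and it overlaps ROBO4, an endothelial receptor at 0.684 and 1.37 TPM in CT and 2.33 and 2.84 TPM in OT, so that the assignment of reads between them is uncertain.

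The UNC5 receptors gave calls in both directions. UNC5B, a netrin receptor also known from blood vessels, was at 68.8 and 63.6 TPM in CT, 36.0 and 42.0 TPM in OT, 32.7 and 33.5 TPM in CH, and 46.5 and 49.2 TPM in OH. CT was the highest group, OT lay below CT, and OH lay above CH, with no overlap. UNC5B fell in OT by 0.73 on the log2 scale (1.65-fold; SE 0.110; adjusted p = 0.0182 by edgeR; −0.66 and adjusted p = 0.135 without CT1) and was lower in CH than in CT (−0.98, SE 0.111; adjusted p = 0.00461), the latter in all 16 alternatives.

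UNC5B also differed between the tissues in its response. In OH its log2 difference from CH was 0.50 (SE 0.110; unadjusted p = 0.00239, adjusted p = 0.826). The interaction was −1.23 (SE 0.156; adjusted p = 0.0435 by edgeR), and UNC5B was the only member called in it: 1 of 57 lower (1.75%, against 0.138% of all genes) and 0 of 57 higher (against 0.0843%). It was lost in 10 of 15 alternatives, among them without each of the CH, OH and CT samples (−1.17 and adjusted p = 0.204 without CT1), and the value lay between −1.29 and −1.16 in all 15. At an unadjusted p under 0.05, 15 members passed the interaction test (26.3%, against 13.1% of all genes), 6 positive and 9 negative. DESeq2 called 9 of the 57 members in the interaction and 4.83% of all genes.

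UNC5C, another repulsive netrin receptor, was at 31.8 and 23.3 TPM in CT, 12.4 and 17.0 TPM in OT, 19.5 and 25.4 TPM in CH, and 28.5 and 26.7 TPM in OH. It fell in OT by 0.89 on the log2 scale (SE 0.184; adjusted p = 0.0371 by edgeR; −0.70 and adjusted p = 0.218 without CT1), and its interaction was −1.17 (adjusted p = 0.152). UNC5A, which is expressed in the nervous system, rose, although from a low level, with 0.563 and 0.433 TPM in CT, 1.37 and 1.28 TPM in OT, 2.87 and 2.34 TPM in CH, and 4.12 and 4.43 TPM in OH. UNC5A was higher in OT by 1.45 (adjusted p = 0.0464; 1.62 and adjusted p = 0.183 without CT1), a call lost in 14 of 16 alternatives, and in CH by 2.39 (adjusted p = 0.00836). UNC5D was at 1.00 and 1.40 TPM in CT and rested on 1 sample in OT, with 6.62 TPM in OT1 and 1.47 TPM in OT2 (adjusted p = 0.130).

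NTN1, the secreted netrin of the floor plate, was the only netrin above 5 TPM. It was at 12.5 and 8.24 TPM in CT, 10.0 and 17.7 TPM in OT, 18.7 and 19.7 TPM in CH, and 25.04 and 33.4 TPM in OH. CT and OT overlapped (0.45, SE 0.295; adjusted p = 0.365 by edgeR), and the difference between CH and CT was not called (0.90, adjusted p = 0.122). In the area opaca NTN1 was low, at 0.515 TPM in CA (42 counts) and 0.0982 TPM in OA.

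**Figure D3:**
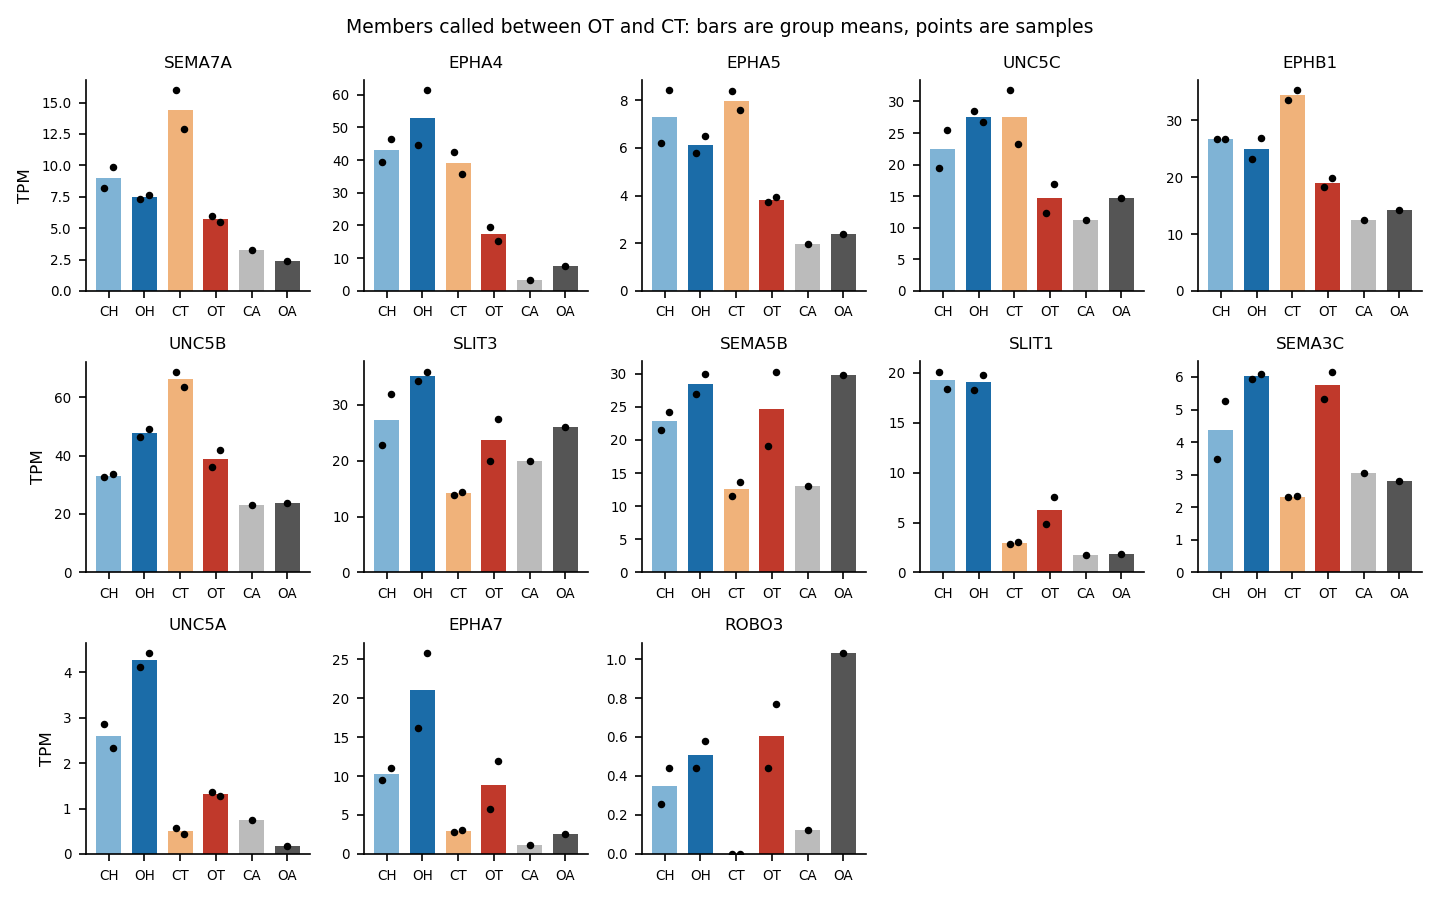
TPM (y axis, from 0, with its own scale in each panel) of the 13 guidance genes called between OT and CT, in the 6 groups (x axis); bars are group means and points are samples, with 1 sample in CA and OA. Genes are ordered from the most negative to the most positive fold change: SEMA7A, EPHA4, EPHA5, UNC5C, EPHB1 and UNC5B are lower in OT than in CT, and the other 7 are higher.

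The markers of other tissues also differed between CT and OT. The summed level of the paraxial mesoderm and tail bud list went from 440 and 395 TPM in CT to 85.3 and 72.0 TPM in OT. Of 8 tested markers, 2 were called lower (TBXT and TBX6), and MSGN1 and MESP1 were lower without a call. The list did not fall as a whole, since FOXC2 (1.39), TCF15 (0.94), MEOX1 (0.28) and MEOX2 (3.53) had positive log2 differences, none called. The sum of the 7 heart markers was 91.8 and 114 TPM in CT and 1192 and 1045 TPM in OT, with 4 called higher and 1 lower, and that of the endoderm and yolk sac markers was 2190 and 5516 TPM in CT and 12386 and 8601 TPM in OT, with 2 called higher. The 8 neural crest markers summed to 205 and 246 TPM in CT and 134 and 182 TPM in OT, with 2 called higher (SOX10 and FOXD3) and 2 lower (SNAI2 and TFAP2A). Of the 10 endothelial markers, 0 were called, with sums of 149 and 302 TPM in CT and 260 and 325 TPM in OT. The 6 notochord and floor plate markers summed to 243 and 180 TPM in CT and 118 and 117 TPM in OT. Of them, 1 was called higher (FOXA2) and 2 lower (CHRD and NOTO). The 8 surface ectoderm markers summed to 2363 and 3069 TPM in CT and 3660 and 2787 TPM in OT. Here 1 was called higher (KRT5) and 2 lower (TP63 and DLX5). The neural plate list split the OT pools, at 98.4 TPM for OT1 but 247 TPM for OT2, against 201 and 176 TPM in CT. Of its 8 markers, 1 was called higher (NKX6-2). The blood list also split them, with sums of 10609 TPM (OT1) against 1395 TPM (OT2). Its CT sums were 6714 and 4346 TPM, and 0 of its 5 tested markers were called. The part of these tissues in the changes of EPHA4, EPHA5, EPHB1, SEMA7A, UNC5B and UNC5C, which fell, and of EPHA7, SEMA3C, SEMA5B, SLIT1, SLIT3, UNC5A and ROBO3, which rose, was not tested. In bulk tissue, fewer cells of a type and less RNA per cell cannot be told apart.

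The OT duplicates differed more than the others in these families. The median absolute log2 difference between duplicates was 0.56 over the members in OT, against 0.33 over all genes, and was 0.23, 0.18 and 0.20 over the members in CH, OH and CT. Among the 45 members of at least 5 TPM in an OT sample, 6 differed at least 2-fold between OT1 and OT2 (13.3%, against 9.64% of all genes), namely EFNA5, EPHA1, EPHA7, SEMA3D, SEMA3G and UNC5D. SEMA3D, a class 3 semaphorin, was lower in OT1 (23.7 TPM) than in OT2 (54.7 TPM), whereas SEMA3G and UNC5D were higher in OT1. Of the members called higher in OT against CT, UNC5A had its higher level in OT1. The others had it in OT2, as did the neural plate sum. Of those called lower, EPHA4 and SEMA7A had the higher level in OT1 and the others in OT2. The part of neural plate content in these differences was not tested. In CT, 3 of 40 members differed at least 2-fold (7.5%, near the 5.2% of all genes). These were SEMA3G, SEMA5A and SEMA6D, and all 3 were higher in CT2.

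**Figure D4:**
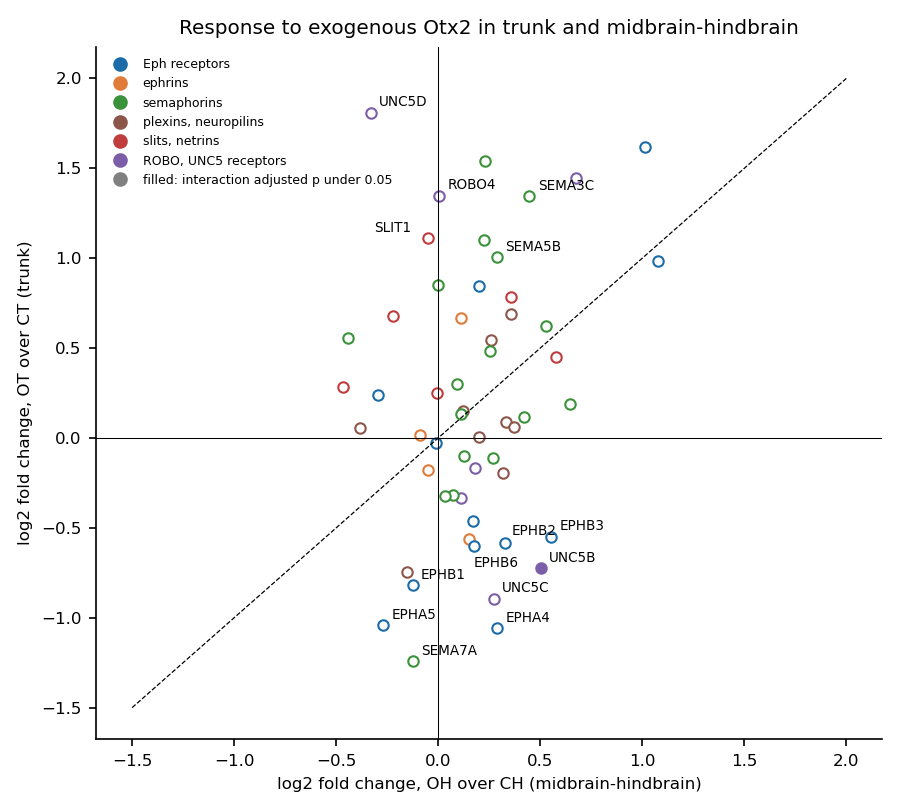
Log2 fold change in the midbrain-hindbrain (OH over CH, x axis) and in the trunk (OT over CT, y axis) for 55 guidance genes, colored by role; the dashed line marks equal changes, the names mark an unadjusted interaction p under 0.05, and the filled point, UNC5B, has an adjusted p under 0.05. The EPHB genes, EPHA4, UNC5B and UNC5C lie below the line and SLIT1 and UNC5D above it; ROBO3 and EPHA8, with 0 counts in some samples, are not drawn.

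In the midbrain-hindbrain, the 5 members with an unadjusted p under 0.05 were all higher in OH. Besides EPHA7, EPHB3 and UNC5B, these were the plexin PLXNB3 and the secreted semaphorin SEMA3B, which were chosen for mention after their values had been seen. SEMA3B was at 40.7 and 28.7 TPM in CH and 57.8 and 57.1 TPM in OH (0.53, unadjusted p = 0.0315). PLXNB3 was at 21.4 and 20.1 TPM in CH and 24.98 and 29.9 TPM in OH (0.37, unadjusted p = 0.0458). Neither of the pairs overlapped. Of the 57 members, 41 had a positive and 16 a negative difference, and the median log2 difference was 0.18, against 0.01 over all genes. Among all genes, DESeq2 called 62 in OH against CH, and 58 of these were higher. Differences that were higher in OH were thus not particular to the members. The share of all genes with a positive difference was not counted.

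Many of the guidance genes had their lowest levels in the posterior area opaca. Among the 54 members with at least 1 TPM, CA and OA both lay below all 8 embryonic samples for 27 members (50%, against 29.9% of all genes of that level), and above them for 2 (3.70%, against 8.88%). These 2 were SEMA5A, a transmembrane semaphorin with thrombospondin repeats, at 52.1 TPM in CA and 108.5 TPM in OA, and SLIT2, at 16.1 and 23.2 TPM. The embryonic samples were between 6.17 and 40.4 TPM for SEMA5A, with the highest value in OT1. EPHA4 was at 3.44 TPM in CA and 7.58 TPM in OA, SLIT1 at 1.72 and 1.87 TPM, and UNC5B at 22.9 and 23.8 TPM.

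OA exceeded CA in 41 of the 54 members (75.9%, against 59.5% of all genes). With 1 sample of each, this difference has no replicate check and no test was made. At least 2-fold higher in OA, with 5 TPM or more, were 7 members (13.0%, against 3.56% of all genes), and 0 members were at least 2-fold higher in CA (against 1.72%). They were EPHA4, the neuropilin NRP1 (37.5 TPM in CA and 81.8 TPM in OA), PLXNC1, PLXND1 (18.8 and 39.9 TPM), SEMA3D (3.34 and 15.6 TPM), SEMA5A and SEMA5B (13.1 and 29.8 TPM). PLXND1 is an endothelial plexin, and the endothelial markers summed to 347 TPM in CA and 535 TPM in OA; their part in these levels was not tested.

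**Figure D5:**
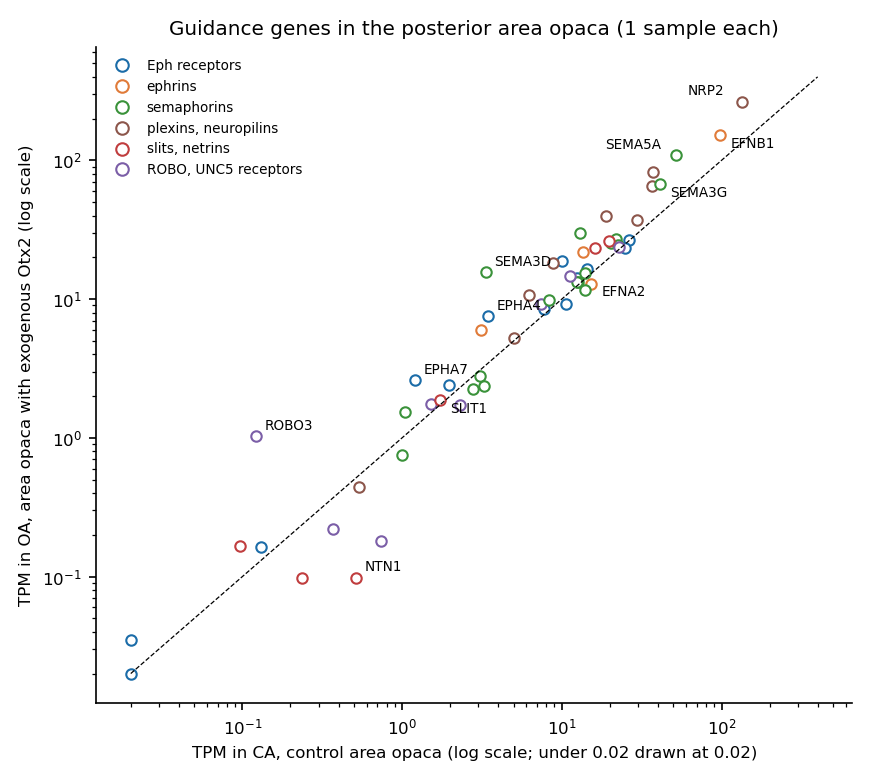
TPM of the 57 guidance genes in CA (x axis) and OA (y axis), both on log scales, with 1 sample each and the dashed line marking equal levels. SEMA5A, SEMA3D and NRP2 lie above the line, EFNA2 lies just below it, and NTN1 lies at the low end in both samples.

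A list of 44 other genes of the guidance pathways, among them co-receptors, repulsive guidance molecules and downstream GTPase regulators, was examined beside the members, and 39 of them were tested. Without CT1, the only calls kept were FARP1 in OT against CT, and NTNG2 and TIAM1 in CH against CT. Fewer of all genes were also called without CT1. In OT against CT, 4 were called higher (10.3%, against 4.29% of all genes) and 8 lower (20.5%, against 2.44%), with a median log2 change of 0.02. Among the genes called, the highest rises were those of NRCAM, an adhesion molecule and co-receptor of semaphorins (3.27, adjusted p = 0.0118 by edgeR), and the netrin-related NTNG2 (2.598, adjusted p = 0.0104). The level of NTNG2 was 0.542 ± 0.180 TPM in CT against 3.26 ± 0.147 TPM in OT (SD, n = 2 pools). The other genes called higher were NGEF, an ephexin downstream of EphA receptors, and FLRT2, an adhesion protein that binds UNC5 receptors.

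FARP1, a GTPase regulator linked to semaphorin 6 and plexin signaling, fell by 1.29 in OT (SE 0.109; adjusted p = 0.00444 by edgeR), with 85.8 ± 0.553 TPM in CT and 34.2 ± 1.09 TPM in OT (SD, n = 2 pools). It was the only gene of this list called in the interaction (−1.37, adjusted p = 0.0347), in which 0 of all genes were called without CT1. The others called lower in OT were RGMA, a repulsive guidance molecule, the semaphorin effectors CRMP1 and DPYSL4, the slit-ROBO effectors SRGAP2 and SRGAP3, TIAM1, which links Eph receptors to RAC, and the adaptor SHB. In CH against CT, 7 were called higher (17.9%, against 4.88% of all genes) and 4 lower (10.3%, against 2.91%). DRAXIN, a secreted axon repellent, was higher in CH (49.2 ± 14.7 TPM) than in CT (8.87 ± 4.49 TPM; SD, n = 2 pools; 2.34, adjusted p = 0.0327), and FLRT3, which also binds UNC5 receptors, had 89.5 ± 2.83 TPM in CH against 30.1 ± 3.77 TPM in CT (1.58, adjusted p = 0.0139). In OH against CH, 0 of the 39 were called.

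Positions of genes that carried the main results are as follows. The chromosome numbers were taken by matching gene identifiers to those of the GRCg7b assembly, and the positions are those of the deposited GRCg7w transcripts, given from the first to the last base of the gene. UNC5B (chromosome 6) spans 12520869 to 12551763, SLIT1 (chromosome 6) spans 23069098 to 23100364, EPHA4 (chromosome 9) spans 7094272 to 7342904, and EPHB1 (chromosome 9) spans 3208074 to 3252665. EPHA7 (chromosome 3) spans 73393092 to 73552665, SEMA3C (chromosome 1) spans 11383302 to 11505859, and SEMA7A (chromosome 10) spans 2421710 to 2455834. The levels above are sums over all exons of a gene and over all its transcripts, since the deposited split between transcripts was not stable between samples. The main transcript of SLIT3, for example, held between 0% and 91.6% of the gene in different samples, and that of EPHA4 between 18.8% and 100%.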

How the data were processed

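Poly-A RNA from 10 pools of 4 embryos was sequenced. Per the deposited tables and the study's methods, the authors mapped the reads to GRCg7w supplemented with mouse Otx2 and EGFP, and made the read counts (whole numbers, not normalized) and the TPM values (scaled for length and depth) with StringTie; the aligner, versions and strand setting are not given in the sources used here. The 20 FPKM columns were not used.

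The 8 midbrain-hindbrain and trunk samples entered a single fit in R 4.3.3 with edgeR 4.0.16 (TMM factors 0.971 to 1.03, default low-count filter, common dispersion 0.0781, 4 residual degrees of freedom); 16611 genes were tested and p-values adjusted over all of them at 0.05. DESeq2 1.42.0 and limma 3.58.1 were alternatives, and figures were drawn with matplotlib 3.10.9 in Python 3.11.15. Unless another source is given, levels are TPM and differences are log2 fold changes. The standard error (SE) of a difference is its absolute value divided by the square root of the F statistic of its test. CA and OA entered no test. Named are members called in OT against CT, OH against CH or the interaction, the 6 highest and 6 lowest called between CH and CT, members with an unadjusted p under 0.05, a log2 difference of at least 1, at least 5 TPM and no overlap, and the most abundant member of each family; others were added after their values were seen. The members follow from the gene symbols alone, but the families and the lists were chosen with earlier results of these data known. All p-values rest on at most 2 pools per group. In the main fit the spread was estimated over the CH, OH, CT and OT pools together. A p-value for OT against CT thus also draws on the spread of the midbrain-hindbrain pools. Over the members, the median absolute log2 difference between duplicates was 0.56 in OT, against 0.23 in CH and 0.18 in OH. A count of 0 was read as under 3 counts, for counting error only, since reads are not independent molecules. Promoter and protein sequences were not used here.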

Additional observations from a re-analysis of the deposited data

Results flagged for a closer look

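UNC5B was singled out because its response to exogenous Otx2 differed between trunk and brain samples by a test of the difference itself. Mouse Otx2 was at 334.2 and 529.2 TPM in OT but at 97.4 and 160.3 TPM in OH. The part of this level in the difference was not tested. The interaction log2 fold change was −1.23 (adjusted p = 0.0435 in edgeR), with OT lower than CT in both OT samples and OH higher than CH in both OH samples. The adjusted p ranged from 5.65e-10 to 0.2997 over the alternatives.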

How the results depend on the processing

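None of the 32 fold changes followed through the alternatives changed sign. Apart from the interaction, the groups compared did not overlap for these, so leaving out 1 pool could hardly reverse a sign. The split of calls in OT against CT went from 7 higher and 6 lower to 1 and 4 under limma with either pseudocount. In OT against CT, 13 members were called with edgeR and 20 with DESeq2 (6.73% and 17.0% of all genes). Limma called 5 members with a pseudocount of 1 and 5 with 0.1 (5.57% and 6.13% of all genes). The 4 samples compared alone gave 0 (0.849% of all genes). In CH against CT the count was 14, with 24 by DESeq2 (15.1% of all genes) and 8 by limma on log2(TPM + 1). Both counts varied when single samples were left out. In OH against CH it was 0, with 1 by DESeq2 and 0 when samples were left out. In the interaction it was 1, with 9 by DESeq2, 0 by limma with either pseudocount, and between 0 and 2 when samples were left out. Over all genes, limma on log2(TPM + 1) called 6.75% in CH against CT and 0.0181% in the interaction, and DESeq2 called 4.83% in the interaction. Over all genes, fewer were also called in OT against CT whenever 1 pool was left out. The same held in CH against CT when a CH or CT pool was left out. A lower count of members in those fits is thus not particular to the members. When an OT pool was left out, more of all genes were called in CH against CT. The cause of these differences was not tested.

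The replicate numbers did not pair the samples, since the deviations of same-numbered samples correlated between −0.155 and 0.143 over the pairs of groups. With the replicate block, 11 members were called in OT against CT and 14 in CH against CT, against 5.29% and 6.67% of all genes. With that block, 0 were called in OH against CH and 0 in the interaction, against 0.0241% and 0% of all genes. With the crossed pairing of the trunk samples, added after seeing the data, the counts were 11, 15, 0 and 0. Over all genes the shares were 6.33%, 7.71%, 0.0241% and 0.0181%.

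With 2 pools per group and 1 of the 2 CT pools without EGFP, the counts of calls in the trunk rest on few degrees of freedom. Members under 1 TPM (EPHA6, EPHA8, NTN4, ROBO3 in the embryo) are measured by few reads.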
